A study of Mus musculus with 2 samples.

Results

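Fibroblast growth factors (FGFs), their receptors and the genes that report and restrain their signalling were described in mouse embryonic fibroblasts, Phc2 L307R against wild type. The members were all probe sets whose only platform gene symbol was Fgf plus a number, Fgfr1 to Fgfr4, Fgfrl1, Spry1 to Spry4, Spred1 to Spred3, Dusp6, Etv4 or Etv5. This gave 84 probe sets of 37 genes, 22 ligands, 5 receptors and 10 feedback genes, out of 45037 probe sets and 18193 genes on the array. Phc2 belongs to Polycomb repressive complex 1 (PRC1), and the L307R allele alters the SAM domain through which Phc2 molecules form polymers. One culture was homozygous for this allele (Phc2 L307R/L307R) and the other was wild type. Both came from C57BL/6 embryos at embryonic day 12.5, were used at passage 1 and grew in serum-containing medium without a named FGF treatment. There were 2 arrays, 1 per genotype, so no difference below has a replicate or a p-value, and each is one between 2 cultures. The labels do not say how many embryos gave each culture.

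FGF ligands bind receptor tyrosine kinases together with heparan sulphate, and the receptors relay the signal through Ras to the kinase ERK. ERK in turn induces genes that report its activity and dampen it. Among these are the ETS transcription factors Etv4 and Etv5, the ERK phosphatase Dusp6 and the Sprouty and Spred inhibitors of Ras signalling. In the embryo, FGF signalling drives limb outgrowth and tunes the growth of cartilage and bone, and fibroblasts are a classical responder cell. Several FGF ligand genes are Polycomb targets in embryonic stem cells.

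The values were MAS5 signals, 1 linear brightness per probe set. Each gene took the value of the probe set with the highest mean log2 signal, called its main probe set here. A gene was measured when this probe set lay above a floor of 94.8, the higher of the array medians, on at least 1 array. Signals below the floor were raised to it, so a fold against such a signal is a lower bound, written "at least". Of the 37 members, 24 were measured (64.9%, against 62.7% of all genes), and 18 of these lay above the floor on both arrays. The only error available was technical: the log2 ratio varied between probe sets of the same gene with an SD of 0.32 over 5460 genes. Array medians were 94.3 for Phc2 L307R and 94.8 for wild type. Fibroblast markers fixed in a list of 9 genes, among them Col1a1, Vim and Pdgfrb, all lay above the floor on both arrays, with main signals of 1608 to 41327 in Phc2 L307R and 1619 to 30907 in wild type. Phc2 itself had signals of 4079 and 3103 at its 2 probe sets in Phc2 L307R, against 3184 and 3145 in wild type, log2 ratios of 0.36 and -0.02. Since L307R changes the protein, its transcript level checks no label.

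Differences of the FGF genes between the cultures were mostly small, as they were over all measured genes. Only 1 of 24 measured members differed at least 2-fold, Spry4, which was 2.15-fold lower in Phc2 L307R at its main probe set, while its other 3 probe sets differed far less. Over all 11408 measured genes, 1.11% differed at least 2-fold, 0.579% higher and 0.535% lower. The same single member was past 1.5-fold, against 7.44% of all genes, 4.19% higher and 3.25% lower. Both shares for the members rest on 1 gene. Without a floor, Fgf18 was past 1.5-fold too. With log2 ratios given as Phc2 L307R over wild type throughout, the measured members had a median of 0.04, against 0.06 for all measured genes. By class the medians were 0.22 for 5 receptors, -0.01 for 10 ligands and 0.04 for 9 feedback genes. Over genes above the floor on both arrays they were 0.30 for 4 receptors, 0.13 for 5 ligands and 0.04 for 9 feedback genes. In 6 of 24 members the log2 ratio lay farther from 0 than the probe set SD of 0.32. This share (25%) was near the 27.7% of all measured genes. At their main probe sets, Fgf18, Fgfr2 and Fgfrl1 were higher in Phc2 L307R, and Fgfr4, Etv5 and Spry4 lower. Fgf18 and Fgfr4 were above the floor on 1 array only, and the probe sets of Etv5 disagreed in direction.

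**Figure D1:**
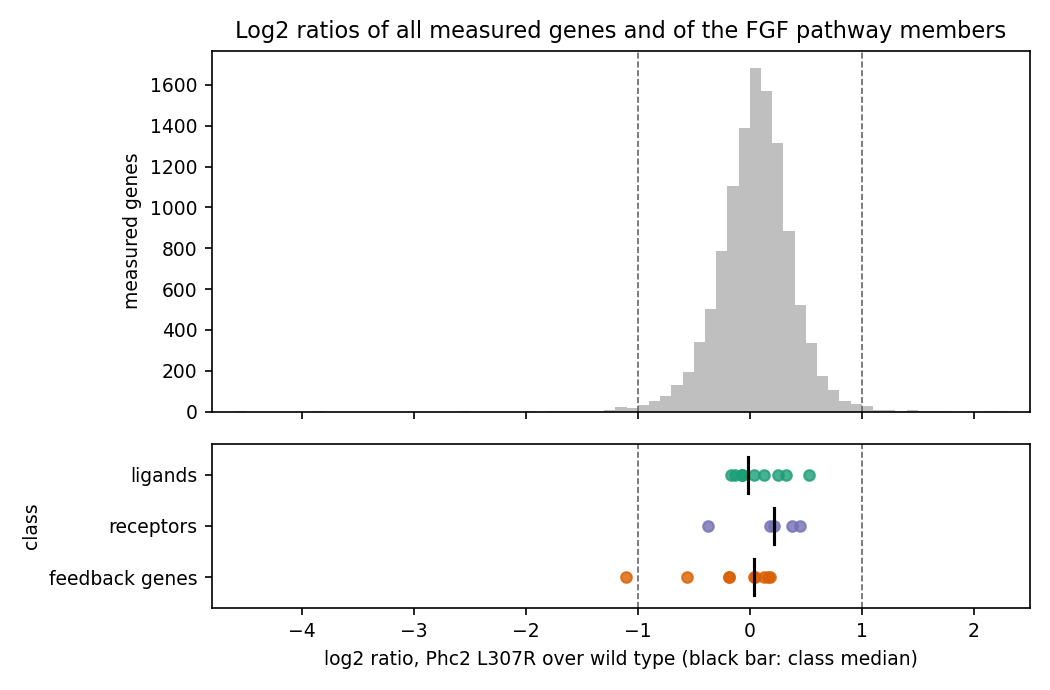
The upper panel counts all 11408 measured genes by their log2 ratio, Phc2 L307R over wild type, in bins of equal width, and the lower panel shows each measured ligand, receptor and feedback gene as a point with a black bar at the class median. Dashed lines mark a 2-fold difference. All members but Spry4 lie between the lines, and the receptor median of 0.22 is right of the ligand median of -0.01.

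The start regions of 4 members are shown because they belong to the ligand, the receptors and the feedback gene of largest ratio among members with a listed start. Each window runs from 250 bases before to 50 bases after an annotated start in RefSeq (build GRCm38.p6), read 5′ to 3′ on the gene's strand. Capitals mark CpG dinucleotides, in which PRC1-bound promoters of mammals are typically rich. For Fgf18 the window is chr11:33147351-33147650, minus strand, for Fgfr2 chr7:130266759-130267058, minus strand, and for Fgfrl1 chr5:108693979-108694278, plus strand. For Etv5 it is chr16:22439521-22439820, minus strand, the first of 2 windows listed.
Fgf18: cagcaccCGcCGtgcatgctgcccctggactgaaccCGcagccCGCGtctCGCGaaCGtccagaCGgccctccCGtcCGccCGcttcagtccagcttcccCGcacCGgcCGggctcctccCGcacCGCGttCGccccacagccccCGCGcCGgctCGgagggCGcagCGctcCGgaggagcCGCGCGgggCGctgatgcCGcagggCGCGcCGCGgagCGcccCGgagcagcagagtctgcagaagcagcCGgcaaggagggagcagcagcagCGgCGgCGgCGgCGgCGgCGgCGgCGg
Fgfr2: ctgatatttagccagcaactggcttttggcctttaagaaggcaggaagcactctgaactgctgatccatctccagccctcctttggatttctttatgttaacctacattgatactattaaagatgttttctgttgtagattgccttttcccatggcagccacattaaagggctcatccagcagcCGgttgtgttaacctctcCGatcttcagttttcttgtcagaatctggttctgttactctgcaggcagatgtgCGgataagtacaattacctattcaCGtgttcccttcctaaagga
Fgfrl1: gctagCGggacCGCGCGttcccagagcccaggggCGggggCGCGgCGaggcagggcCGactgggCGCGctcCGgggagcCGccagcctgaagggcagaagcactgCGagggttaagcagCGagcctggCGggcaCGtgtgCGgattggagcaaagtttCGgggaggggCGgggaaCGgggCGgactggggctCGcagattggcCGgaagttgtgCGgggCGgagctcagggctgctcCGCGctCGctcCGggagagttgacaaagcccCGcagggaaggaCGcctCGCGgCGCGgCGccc
Etv5: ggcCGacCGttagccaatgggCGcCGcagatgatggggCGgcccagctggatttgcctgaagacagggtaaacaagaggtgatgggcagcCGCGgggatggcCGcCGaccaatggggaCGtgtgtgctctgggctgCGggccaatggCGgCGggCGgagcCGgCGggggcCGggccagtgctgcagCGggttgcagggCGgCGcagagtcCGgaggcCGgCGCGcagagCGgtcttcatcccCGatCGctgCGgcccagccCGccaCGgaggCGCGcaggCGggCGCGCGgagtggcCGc
The Fgf18 window held 47 CpGs, more than 98.6% of the 32851 windows in the table. The Fgfrl1 and Etv5 windows each held 37, more than 94.4% of them. The Fgfr2 window held only 4, more than 31.4%. Fgfr2 and Fgfrl1, the receptors with the highest ratios, thus differed widely in CpG content of the listed start.

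With chromosome 18 left out, windows were listed for 27 of the 37 members, 35 in all. Their median was 19 CpGs, against 7 over all windows, and 17 of them (48.6%) reached 20 CpGs, the upper quartile, as did 26.5% of all windows. All windows came from 27025 genes and were not matched to the members in gene type. Whether FGF genes have more CpGs than like genes was therefore not tested. By class, the median was 16 over 22 ligand windows, 26 over 5 receptor windows and 23.5 over 8 feedback windows. CpG-rich starts occurred both in ligands below the floor, such as Fgf2 with 24 CpGs, and in measured feedback genes, such as Spred1 with 40 and Spry1 with 29. The ETS motif CCGGAA, searched on both strands, stood in 5 of the 35 member windows (14.3%) and in 14.9% of all windows. These 5 windows belonged to Fgf5, Fgf12 (1 of its 4 windows), Fgfr4, Fgfrl1 and Spry2. A match describes the letters of this window alone.

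Most ligand genes lay below the floor in both cultures. Of 22 ligands, 10 were measured (45.5%) and 12 lay below the floor on both arrays. The 12 were Fgf1, Fgf2, Fgf6, Fgf8, Fgf12, Fgf14, Fgf15, Fgf16, Fgf17, Fgf20, Fgf22 and Fgf23. Their 21 probe sets had signals of 2.5 to 72.5 in Phc2 L307R and 0.7 to 69.5 in wild type. Fgf8, the ligand of the limb bud's apical ridge and of the midbrain border, read 16.5 in Phc2 L307R and 2.9 in wild type. For Fgf15, an intestinal hormone and a ligand of the embryonic brain, the signals were 6.0 and 2.7. Fgf2, the ligand commonly added to cultured cells, read 72.5 and 63.1 at its only probe set. No order can be read from signals below the floor, and no ligand of these 12 had a probe set above it in either culture.

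Fgf7, keratinocyte growth factor, which mesenchyme makes and epithelia receive, had signals far above the floor at both of its probe sets. Its main probe set read 1124 in Phc2 L307R and 945 in wild type, a log2 ratio of 0.25, and its other probe set read 955 and 1041, a log2 ratio of -0.12. The probe sets pointed in opposite directions and both differences were within 0.32. Fgf10, its relative in limb and lung mesenchyme, read 82.8 in Phc2 L307R and 99.5 in wild type, above the floor only in wild type and at least 1.05-fold lower in Phc2 L307R. Fgf3, a ligand of inner ear and limb development, read 114 in Phc2 L307R and 104 in wild type (log2 ratio 0.13) at an _x_at probe set, a kind whose probes can bind several transcripts. Its other 2 probe sets lay below the floor.

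Fgf18, which promotes bone formation and cartilage growth, had the highest ratio among the ligands. Its only probe set read 137 in Phc2 L307R and 78.0 in wild type, so it was above the floor in Phc2 L307R only, at least 1.44-fold higher (log2 ratio of at least 0.53). Fgf5, which ends the growth phase of hair, read 140.1 and 112, a log2 ratio of 0.32. Its second probe set lay below the floor, at 50.5 and 42.9. Fgf4, a ligand of the early embryo and limb ridge, read 97.5 in Phc2 L307R and 91.9 in wild type, above the floor in Phc2 L307R only. Fgf9, made by epithelia and mesothelia in the embryo, read 111 and 116 at its main probe set and 104.5 and 95.1 at the other, log2 ratios of -0.07 and 0.14. Of the endocrine ligands only Fgf21, a metabolic hormone of liver and fat, passed the floor, with 78.6 in Phc2 L307R and 99.8 in wild type.

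Fgf11 to Fgf14 are FGF homologous factors, which stay inside the cell and bind voltage-gated sodium channels rather than FGF receptors. Fgf13 was above the floor on both arrays. Its main probe set read 842 in Phc2 L307R and 924 in wild type, a log2 ratio of -0.13, and its other probe set read 134 and 198, a log2 ratio of -0.57. Both probe sets were lower in Phc2 L307R, by different amounts. Fgf11 read 81.8 in Phc2 L307R and 106.5 in wild type, above the floor in wild type only. Fgf12 and Fgf14 lay below the floor at all 7 of their probe sets. With signals raised to the floor, no ligand reached 1.5-fold at its main probe set. For Fgf18 that value was a lower bound, and without a floor its log2 ratio was 0.81, past 1.5-fold. Of the 10 ligands, 5 were higher, against 59.1% of all measured genes with a log2 ratio above 0.

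**Figure D2:**
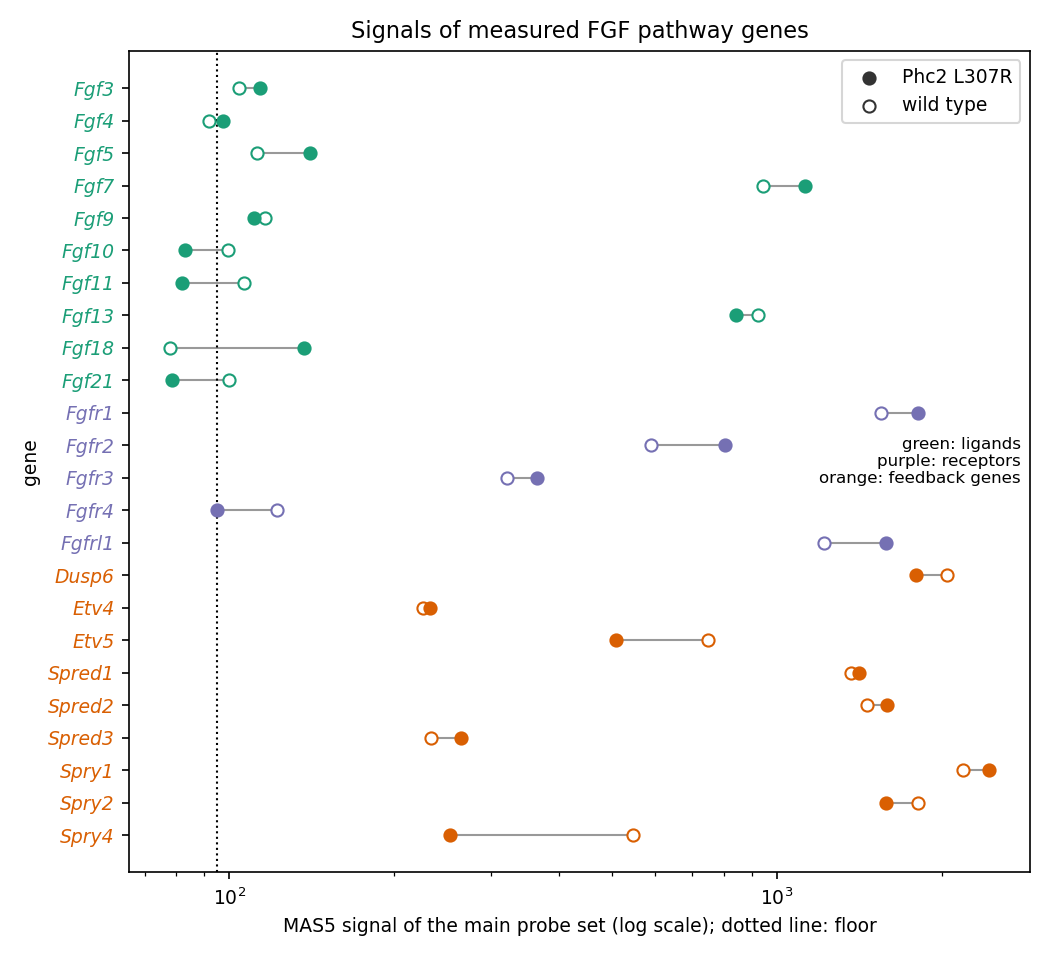
MAS5 signal (horizontal axis, log scale) of the main probe set of each of the 24 measured members, with filled points for Phc2 L307R, open points for wild type and a dotted line at the floor of 94.8. Most ligands sit near the floor, while Spry4 has the widest gap, with 253 in Phc2 L307R and 545 in wild type.

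Of the 5 receptors, 4 were higher in Phc2 L307R, by small amounts and at every measured probe set. Fgfr1, the main FGF receptor of fibroblasts, read 1809.9 in Phc2 L307R and 1549.5 in wild type, a log2 ratio of 0.22. Its other probe sets gave 0.15 (1531 and 1383) and 0.29 (239 and 195). All 3 lay in the same direction, with an SD of 0.07 between them, and each ratio was within 0.32. Fgfr2, whose splice forms receive mesenchymal and epithelial ligands, had the highest ratio of the receptors, with 805 in Phc2 L307R and 589 in wild type (0.45, percentile 91.4 of all measured genes). Its second measured probe set read 750.5 and 519.9, a log2 ratio of 0.53, and the remaining one lay below the floor on both arrays.

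Fgfr3, which restrains the growth of cartilage, read 364.5 in Phc2 L307R and 321 in wild type, a log2 ratio of 0.18. For its second probe set the signals were 112 and 73.8, above the floor in Phc2 L307R only, with a log2 ratio of at least 0.24. Fgfrl1, a receptor without a kinase domain, read 1587 and 1218.5 (log2 ratio 0.38) at its main probe set and 544 and 491 (0.15) at the other. Fgfr4, a receptor known for bile acid control in liver, was the exception. Its main probe set, an _x_at probe set, read 94.8 in Phc2 L307R, at the floor, and 122 in wild type, at least 1.29-fold lower, and its other 4 probe sets lay below the floor on both arrays. Of the 10 measured receptor probe sets, 9 were higher in Phc2 L307R, against 54.3% of all measured probe sets. By gene 4 of 5 were higher, against 59.1% of all measured genes. Probe sets of 1 gene share their transcripts and arrays, so they are no replicates of the difference.

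Most markers of cartilage and bone were also higher on the Phc2 L307R array. All 8 chondrocyte markers were measured and 7 of them were higher, against 59.1% of all measured genes. Their median was 0.91 on the log2 scale, with summed signals of 9046 in Phc2 L307R and 5948 in wild type. The exception was Sox9, lower in Phc2 L307R at 241.5 against 295.9 in wild type (log2 ratio -0.29). All 8 lay above the floor in Phc2 L307R, the lowest being Sox9 at 241.5, and 7 did in wild type, where Matn1 lay below it at 90.4. Of 6 osteoblast markers, 4 had a probe set used here, while Runx2 and Bglap had none and were not assessed. All 4 were higher, with a median of 0.94 and sums of 1602 in Phc2 L307R and 560.0 in wild type. Fibroblast markers were higher in 7 of 9 at the main probe set, with a median of 0.42. The probe sets of Col1a1, Col1a2 and Col3a1 were all higher. Vim and Fn1, higher at the main probe set, had another at -0.22 and -0.33. Pdgfra and Pdgfrb, lower at theirs, had another at 0.77 and 0.33. FGF receptors and Fgf18 are expressed in skeletal tissue, and the part of these cells in the receptor and Fgf18 values was not tested. In a culture measured in bulk, more cells of a type and more RNA per cell cannot be told apart.

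Of the other marker lists, 4 of 6 skeletal muscle markers were measured and all 4 were higher, while Myf5 and Pax7 lay below the floor. Summed over all 6, signals below the floor included, they read 13652 in Phc2 L307R and 10357 in wild type, and the sums of the next 4 lists are likewise over 6 genes. Macrophage markers were measured in 4 of 6 (sums of 742 and 533), with Ptprc and C1qa below the floor. Endothelial markers were measured in 3 of 6 (590.0 and 644), with Pecam1, Cdh5 and Tie1 below the floor. Of the 3, 2 were higher and Emcn was lower, at 94.9 in Phc2 L307R and 210.8 in wild type (log2 ratio -1.15). Neural markers were measured in 5 of 6 (2983 and 2766), with Elavl3 below the floor. Of the 5, 3 were higher and 2 lower, among these Map2 at 359.4 in Phc2 L307R and 891.1 in wild type (-1.31). Epithelial markers, whose cells would be the receivers of Fgf7, were measured in 3 of 6 (941 and 1205), and Epcam, Cdh1 and Krt14 lay below the floor on both arrays.

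**Figure D3:**
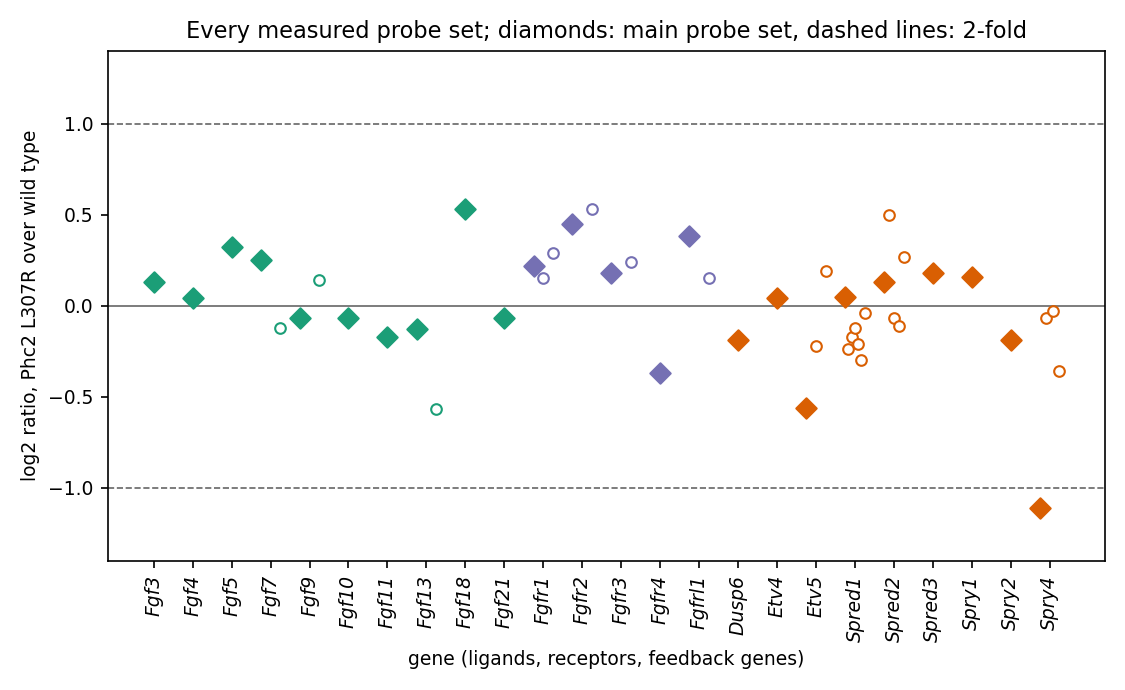
Log2 ratio, Phc2 L307R over wild type, of every measured probe set of each measured member, with diamonds for the main probe set, circles for the others and dashed lines at 2-fold. The probe sets of Fgfr1, Fgfr2, Fgfr3 and Fgfrl1 all lie above 0, while those of Spry4 range from -1.11 to -0.03 and those of Etv5 from -0.56 to 0.19.

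Feedback genes were well expressed in both cultures and mostly close to equal. Of 10, 9 were measured, all 9 above the floor on both arrays. Spry3 alone lay below it, at 36.1 in Phc2 L307R and 56.9 in wild type. Dusp6, the phosphatase that removes ERK's activating phosphates, read 1799 in Phc2 L307R and 2049 in wild type, which is -0.19 on the log2 scale at its only probe set. Among the Sprouty inhibitors, Spry1 read 2440.3 and 2188, a log2 ratio of 0.16, and Spry2 read 1586 and 1811, a log2 ratio of -0.19. These 3 differences were within 0.32 and pointed both ways.

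Spry4, a Sprouty inhibitor of Ras and ERK signalling, was the member with the largest difference. Its main probe set, 1445669_at, read 253 in Phc2 L307R and 545 in wild type, 2.15-fold lower (log2 ratio -1.11, percentile 0.4 of all measured genes). Probe set 1440867_at read 289.8 and 372, a log2 ratio of -0.36. Probe sets 1422021_at (169 and 173) and 1422020_at (103 and 108) gave -0.03 and -0.07. All 4 were lower in Phc2 L307R, but only 1 was past 2-fold, the SD between them was 0.50, and their median was -0.22. With the mean over its probe sets, Spry4 was at -0.39, below the 1.5-fold threshold too. Of the 46 genes on the array with a 2-fold difference and at least 2 measured probe sets, the probe sets of 27, Spry4 among them, all lay in the same direction.

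Etv5, an ETS factor induced by ERK, was the next lowest feedback gene. Its main probe set read 508 in Phc2 L307R and 749 in wild type, a log2 ratio of -0.56 (percentile 3.7). The others read 281 and 327 (-0.22) and 283 and 248 (0.19). The 3 probe sets thus disagreed in direction, and their mean was -0.20. Etv4, its paralog, read 232.5 in Phc2 L307R and 226 in wild type, a log2 ratio of 0.04.

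The Spred genes, whose proteins recruit the Ras inhibitor neurofibromin, had main log2 ratios close to 0. Spred1 read 1413 in Phc2 L307R and 1368 in wild type (0.05) at its main probe set, while its other 6 measured probe sets were lower, between -0.30 and -0.04. The direction of Spred1 therefore depends on the probe set, and its mean over probe sets was -0.15. Spred2 read 1593 and 1459.8 (0.13) at the main one, and its 5 measured probe sets ranged from -0.11 to 0.50. Spred3 read 265 and 233, a log2 ratio of 0.18 at its only probe set. By gene 5 of 9 feedback genes were higher (55.6%), near the 59.1% of all measured genes. The class median of 0.04 turned to -0.02 in ratios centred on the median of all genes and to -0.15 with the mean over probe sets. Over the 24 measured feedback probe sets, 16 were lower in Phc2 L307R, against 45.6% of all measured probe sets, and 10 of the 16 belonged to Spred1 (6) and Spry4 (4). The median of the 24 was -0.09, against 0.03 for all measured probe sets of a gene.

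The rest of the pathway was read from lists written from general knowledge. Of 20 genes that relay the signal from receptor to ERK, 14 had a probe set used here and all 14 were measured. Their median log2 ratio was 0.20, with 10 of 14 higher, against 59.1% of all measured genes. Only Sos2 was past 1.5-fold, 1 of 14, against 7.44% of all measured genes. Sos2, an exchange factor that loads Ras with GTP, read 389 in Phc2 L307R and 609 in wild type, a log2 ratio of -0.65. The docking proteins Gab1 and Gab2 followed, Gab1 with 719.8 and 482 (0.58, its 3 probe sets from -0.14 to 0.58) and Gab2 with 439 and 336 (0.39). Heparan sulphate proteoglycans, their enzymes and other FGF co-receptors had a median of 0.12 over 19 measured of 24 listed, with 14 higher and 2 past 1.5-fold. Of these, Sdc4, the cell surface proteoglycan syndecan 4, read 3614 in Phc2 L307R and 1914 in wild type (0.92), though its other probe set gave -0.22. Fgfbp3, a secreted FGF-binding protein, read 139 and 240.4 (-0.79), and Sulf2, which removes sulphate from heparan sulphate, read 6872 and 5151.5 (0.42, its 3 probe sets from -0.21 to 0.46). The Klotho co-receptors of the endocrine ligands, Kl and Klb, lay below the floor on both arrays, at 2.5 and 7.2 in Phc2 L307R and 21.9 and 25.9 in wild type.

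Other genes that ERK induces, and further negative regulators, had a median of -0.08 over 19 measured genes of 20 listed, with 13 lower, against 40.9% of all measured genes, and none was past 1.5-fold. The zinc finger factor Egr2 read 200.4 in Phc2 L307R and 289 in wild type, a log2 ratio of -0.53. Fosl1, a subunit of the factor AP-1, read 870.5 and 1196 (-0.46), and Dusp1, a phosphatase of MAP kinases, read 3306 and 2438 (0.44). The 2 probe sets of Egr2 and of Fosl1 were lower in Phc2 L307R in each case. Receptors and relay genes thus had medians of 0.22 and 0.20, against 0.06 for all measured genes. The feedback median of 0.04 lay next to that value, and the median of this last list was -0.08. Lists outside the pathway were as high, with 0.23 for PRC1 subunits and 0.42 for fibroblast markers. These gaps were not tested. In the list of 11 PRC1 subunits, 9 were measured with a median of 0.23. Cbx8 read 177 in Phc2 L307R and 103 in wild type (0.78), and Phc1 read 1229 and 816 (0.59).

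**Figure D4:**
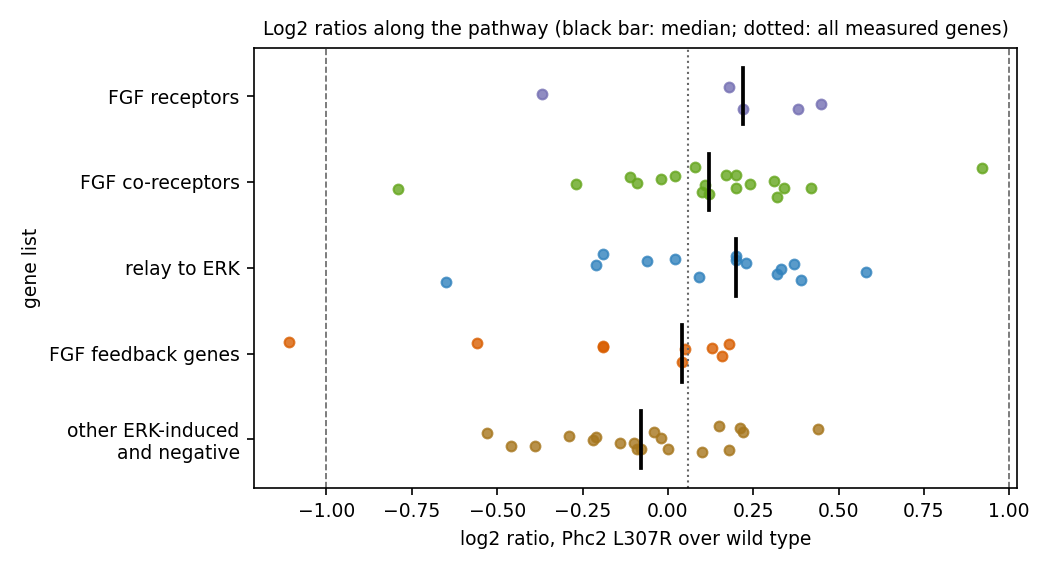
Log2 ratio, Phc2 L307R over wild type, of each measured gene in 5 steps of the pathway, with a black bar at each list's median, a dotted line at the median of all measured genes (0.06) and dashed lines at 2-fold. The medians are 0.22 for receptors, 0.12 for co-receptors and 0.20 for relay genes. They are 0.04 for FGF feedback genes and -0.08 for other ERK-induced genes and negative regulators. The lists overlap widely.

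In position, none of the 37 members lies on the chromosome of Phc2 in the RefSeq gene table, so none can be a near neighbour of the mutated locus. Several members are neighbours of each other. Fgf3, Fgf4 and Fgf15 stand in a row with no other protein-coding gene between them, and so do Fgf6 and Fgf23. Fgf3 and Fgf4 had log2 ratios of 0.13 and at least 0.04, and Fgf15, Fgf6 and Fgf23 lay below the floor on both arrays. Fgf2 and Spry1 are 2 protein-coding genes apart, as are Spry4 and Fgf1. In both of these pairs the Sprouty gene was measured and the ligand lay below the floor.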

How the data were processed

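Total RNA of 2 cultures, 1 per genotype, was hybridised as biotin-labelled cRNA to 1 Affymetrix array each, per the labels' protocols. The authors deposited 1 linear intensity per probe set and array. Affymetrix Expression Console and MAS5 produced them, per the submitters' processing notes. The array's genome build and scaling step were not given in the sources used here. After trimming 2% of probe sets from both ends, each array's mean was 500.0, and this scale was kept. Detection calls were not used. The 64 control probe sets were left out. Of the other 45037, 34945 carried 1 gene symbol in the platform annotation, 932 several and 9160 none. Symbols were updated through the RefSeq table of GRCm38.p6, which served otherwise only for neighbours and start sequences. No test was run between the genotypes. Genes were counted at 2-fold and 1.5-fold. All measured members were named. Of each pathway list, members past 1.5-fold were named, or the 3 of largest absolute log2 ratio where fewer passed. Other marker, low-signal and list genes named were chosen after their values were seen. The members and lists were chosen with earlier results of these data known. The calculation was tested on simulated data. Alternatives were quantile normalization, loess (span 0.4, 3 iterations), centring, floors at percentiles 40 and 60, no floor, the floor as pseudocount, the mean over probe sets and the removal of _x_at and _s_at probe sets. The median over probe sets and the restriction to genes above the floor on both arrays were added after seeing the data. Python 3.11.15, numpy 2.4.6, pandas 2.3.3, scipy 1.17.1 and statsmodels 0.14.6 were used.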

Additional observations from a re-analysis of the deposited data

How the results depend on the processing

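The 9 planned and 2 added alternatives gave 247 values for the measured members, of which 243 moved by less than the probe set SD of 0.32 and 7 changed sign (Etv4, Fgf4, Fgf9 and Spred1, all within 0.17 of 0). The 4 larger moves were those of Spry4 and Etv5. The mean over probe sets gave -0.39 for Spry4 and -0.20 for Etv5, and the median over probe sets -0.22 for both, since their probe sets disagreed in size. The count of members past 2-fold was 0 with the pseudocount and with the mean or the median over probe sets. Past 1.5-fold it was 2 with loess, centring, the floor at percentile 40 and no floor, and 0 with the mean or the median over probe sets. Beside Spry4, the member past 1.5-fold was Etv5 with loess (-0.59) and centring (-0.62). With the floor at percentile 40 and with no floor it was Fgf18 (0.81 in both). Over all genes, the count past 2-fold was 217 and 62 with floors at percentiles 40 and 60, 281 without a floor and 48 with the pseudocount. The count past 1.5-fold was 549 with the floor at percentile 60 and 457 with the pseudocount. Of genes past 2-fold 52.0% were higher in Phc2 L307R, and 38.5% after centring. The receptor median stayed between 0.16 and 0.30 over the 11 alternatives, with Fgfr1, Fgfr2, Fgfr3 and Fgfrl1 above 0 in each. The ligand median ranged from -0.08 to 0.13 and the feedback median from -0.17 to 0.04, each on both sides of 0. No paired analysis was possible because each genotype had 1 array, and no replicate could be left out. For ligands near the floor, signal over background limits any statement.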
